A study of Mus musculus with 18 samples.

Results

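The vascular endothelial growth factor (VEGF) ligands and their receptors were examined in the 3 main cell types of the mouse kidney glomerulus, in *Cd2ap* mutant and wild type mice. The 10 genes are the ligands *Vegfa*, *Vegfb*, *Vegfc*, *Figf* (VEGF-D) and *Pgf*, the receptors *Flt1*, *Kdr* and *Flt4*, and the co-receptors *Nrp1* and *Nrp2*. They were taken by gene symbol from the 28856 transcript clusters of the array, where each has exactly 1 transcript cluster.

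Podocytes, mesangial cells and endothelial cells were sorted by FACS from dissociated glomeruli of mice aged 5 weeks, and 3 arrays were made for each of the 6 combinations of cell type and genotype, 18 in all. Mutant mice carried the *Cd2ap* null allele of the B6.129X1-Cd2ap tm1Shaw/J strain on both chromosomes, and they serve as a model of focal segmental glomerulosclerosis, in which parts of some glomeruli scar. Each cell type was sorted with a GFP transgene of its own in both genotypes, *Meis1-GFP* for mesangial cells and *Tie2-GFP* for endothelial cells, so cell type and transgene line cannot be told apart. Regulatory sequences of *Meis1* and *Tek* (Tie2) drive these 2 transgenes, so a sorted cell is one in which such a sequence was active. The mesangial control columns carry a plus and a minus sign and those of the other controls 2 plus signs, and the sample titles call the former control and the latter wild type. The genotype field gives all 9 as wild type, and that name is kept here, although the mesangial controls may carry 1 mutant allele. Whether a mouse gave more than 1 array is not given beyond the statement that triplicates were biological. Arrays of a group are called A, B and C, which only names them.

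VEGF-A is the main growth and survival signal of blood vessel endothelium, and in the glomerulus podocytes make it and the fenestrated endothelium across the basement membrane receives it. Its signalling receptor is VEGF receptor 2, encoded by *Kdr*, while VEGF receptor 1, encoded by *Flt1*, binds VEGF-A tightly and limits its action, and also binds VEGF-B and placental growth factor. VEGF-C and VEGF-D are known for VEGF receptor 3, encoded by *Flt4*, and for lymphatic vessels, and the neuropilins hold VEGF or class 3 semaphorins for the signalling receptors.

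The values are linear RMA signals. Array medians ranged from 62.8 to 71.6, and 9697 to 10097 transcript clusters per array reached 100, the minimum used for testing. *Cd2ap*, the mutated gene, had signals of 797 to 870 in mutant and 922 to 1123 in wild type mesangial arrays (log2 fold change -0.31, limma adjusted p = 0.151), 1478 to 1512 against 1546 to 2108 in podocyte arrays (-0.23, adjusted p = 0.504) and 891 to 966 against 757 to 859 in endothelial arrays (0.18, adjusted p = 0.336). It was therefore not shown to be lower in any cell type, a probe outside the deleted part would check nothing, and directions of change rest on the labels. Summed marker signals were highest in the arrays of their own cell type, with departures that touch the VEGF genes. In wild type arrays 1 of 10 endothelial markers, *Plvap*, was called higher in podocytes and in mesangial cells than in endothelium. Wild type mesangial array C had a summed endothelial marker signal (10 genes) of 7517, against 3382 and 3780 in arrays A and B, and a summed podocyte marker signal (9 genes) of 4046, against 993 and 1145. Summed endothelial marker signal in podocyte arrays was 4711, 5507 and 4156 in wild type and 2793, 1397 and 964 in mutant arrays A, B and C. Summed mesangial marker signal (6 genes) in the same arrays was 3613, 3114 and 2781 in wild type and 2485, 2399 and 827 in mutant. Wild type mesangial array C also had the highest erythroid marker signal of the mesangial arrays (7227, against 176 to 559), and of the wild type mesangial arrays the highest tubule (7 genes, 1016 against 425 and 401) and leukocyte (5 genes, 759 against 333 and 277) marker sums. In bulk arrays, fewer cells of a type and less RNA per cell cannot be told apart.

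The promoters of the ligands and receptors that differed most between cell types or genotypes are given here as the 250 bases before the transcription start, 5′ to 3′ on the gene's strand, from RefSeq on GRCm38.p6. All 10 genes matched a RefSeq promoter by symbol or synonym, with 12 promoters in all, since *Vegfa* and *Pgf* have a pair each, of which the upstream *Vegfa* start is printed. Capitals mark matches on either strand to 4 short motifs. The GC box was searched for as GGGCGG, and the hypoxia response core, to which hypoxia-inducible factors are known to bind, as ACGTG. The TATA element of core promoters was searched for as TATAAA. The motif of ETS type factors, a family active in endothelium, was searched for as AGGAAG.
Kdr, chr5:75978456-75978705, minus strand: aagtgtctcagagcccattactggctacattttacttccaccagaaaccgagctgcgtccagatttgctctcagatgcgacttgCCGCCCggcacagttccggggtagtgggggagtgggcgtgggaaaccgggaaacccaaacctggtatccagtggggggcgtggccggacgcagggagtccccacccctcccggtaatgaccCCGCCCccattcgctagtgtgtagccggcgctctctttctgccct
Flt1, chr5:147726012-147726261, minus strand: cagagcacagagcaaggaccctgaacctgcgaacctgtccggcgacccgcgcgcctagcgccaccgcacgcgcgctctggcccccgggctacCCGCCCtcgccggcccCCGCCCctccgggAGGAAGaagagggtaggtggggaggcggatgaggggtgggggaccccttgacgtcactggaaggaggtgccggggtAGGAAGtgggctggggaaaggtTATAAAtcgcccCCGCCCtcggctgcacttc
Vegfa, chr17:46032378-46032627, minus strand: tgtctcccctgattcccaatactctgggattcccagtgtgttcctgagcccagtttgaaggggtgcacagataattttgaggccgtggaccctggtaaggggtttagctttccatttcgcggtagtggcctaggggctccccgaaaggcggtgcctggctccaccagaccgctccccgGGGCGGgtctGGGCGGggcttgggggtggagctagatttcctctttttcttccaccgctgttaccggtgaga
Figf, chrX:164373272-164373521, plus strand: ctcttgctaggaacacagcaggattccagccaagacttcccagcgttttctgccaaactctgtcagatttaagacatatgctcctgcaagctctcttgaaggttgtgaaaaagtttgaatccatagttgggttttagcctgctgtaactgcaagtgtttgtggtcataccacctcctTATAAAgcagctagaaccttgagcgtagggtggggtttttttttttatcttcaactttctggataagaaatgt

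The *Kdr* window held 2 GC boxes, at -166 and -45 from the start, and was 61.6% G and C. The *Flt1* window held 3 GC boxes, a TATA element at -31 and the ETS type letters at -129 and -53. The *Vegfa* window held 2 GC boxes, at -72 and -62, and no ACGTG. Other spellings of the hypoxia response core, and bases further upstream than 250, were not searched in any gene. The window of the second *Vegfa* start, chr17:46025164-46025413 on the minus strand, lies downstream of the printed start, inside the gene. It held 1 GC box, at -158, and 1 match to the hypoxia response core, at -211. That was the only match to these letters among the 12 windows, and it lies within the gene body, not ahead of the gene. The *Figf* window stood apart in base composition, with 42.4% G and C, no GC box and a TATA element at -73. Over 32851 RefSeq promoter windows of the same length, 32.7% held a GC box, 12.4% the TATA letters, 16.6% the hypoxia response core and 29.5% the ETS type letters, so a match to any of them is common. These matches describe the sequence and are not sites of binding.

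The first question was where each ligand is measured among the sorted cells of wild type glomeruli. *Vegfa* was highest in podocytes and *Figf* in mesangial cells. *Vegfa* read 957.0, 973.7 and 1012.1 in wild type podocyte arrays A, B and C, 299.7, 306.3 and 304.6 in endothelial arrays, and 99.4, 86.6 and 300.3 in mesangial arrays. Podocytes lay above both other types without overlap, and mesangial array C, the array with podocyte and endothelial marker signal, read like endothelium. The level in podocytes (mean 981 ± 28.3, SD, n = 3) was 3.23-fold that of endothelial cells (log2 difference 1.69 ± 0.38, SE, limma adjusted p = 0.00572). Mesangial arrays A and B were under 100. With signals under 100 set to 100, mean log2 signal in podocytes exceeded that of mesangial cells by 2.77 (2.50 to 3.29 with 1 array left out, adjusted p = 0.000441). For such mixed groups the adjusted p is that of the fit to the signals as deposited, and where a whole group was under 100 the difference is given as "at least" the fold over 100, from mean log2 signal. Endothelial cells exceeded mesangial cells by 1.07 on the same scale (0.81 to 1.60 with 1 array left out, adjusted p = 0.0429), a call lost when any array but mesangial C was left out (adjusted p up to 0.141), while without mesangial array C the adjusted p was 1.35e-06.

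*Figf*, which encodes VEGF-D, was highest in mesangial cells and lowest in endothelium. It read 1057.7, 1323.8 and 992.8 in wild type mesangial arrays, 408.6, 321.3 and 266.9 in podocyte arrays and 55.8, 40.1 and 50.3 in endothelial arrays. The 3 types formed separate steps with no overlap, and the endothelial arrays all lay under the minimum of 100. Mesangial cells were at least 11.2-fold above endothelial cells (adjusted p = 1.34e-07), and they exceeded podocytes by 1.77 on the log2 scale (podocyte minus mesangial -1.77 ± 0.18, adjusted p = 9.65e-05). Podocytes were at least 3.27-fold above endothelial cells (adjusted p = 4.73e-06). Mesangial markers were present in the wild type podocyte arrays, as given above, and their part in the *Figf* signal there was not tested.

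**Figure D1:**
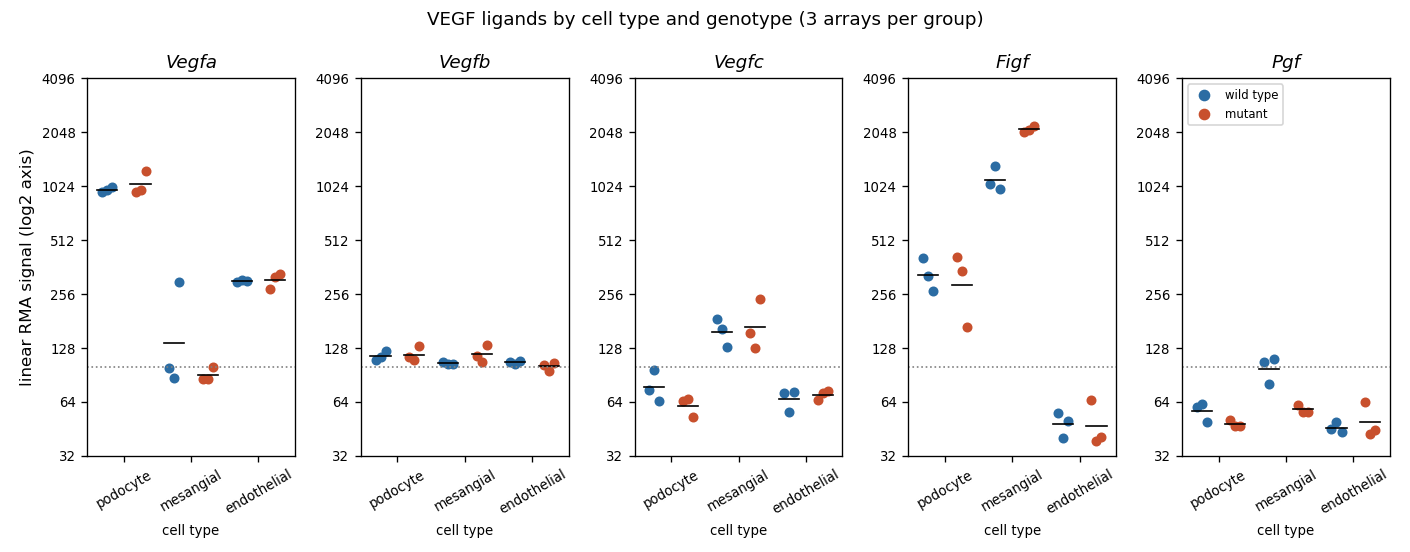
Linear RMA signal (log2 axis) of the 5 ligands in each of the 18 arrays, by cell type, with wild type arrays in blue and mutant arrays in orange. Bars are means of log2 signal and the dotted line is the minimum of 100. *Vegfa* was highest in the podocyte arrays (946.3 to 1252.1) and *Figf* in the mutant mesangial arrays (2049.5 to 2223.1).

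The other 3 ligands were low. *Vegfc*, the second ligand of VEGF receptor 3, read 185.3, 163.8 and 130.4 in wild type mesangial arrays and under 100 in all other wild type arrays. Mesangial cells were at least 1.58-fold above podocytes (adjusted p = 0.00224) and above endothelial cells (adjusted p = 0.00057). *Pgf*, the placental growth factor, read 106.7, 80.4 and 110.9 in wild type mesangial arrays, near the minimum, and 42.4 to 64.1 in all podocyte and endothelial arrays of both genotypes. The fit called it higher in mesangial cells than in endothelial cells (adjusted p = 0.000315) and podocytes (adjusted p = 0.00261), but with mesangial values around 100 and all others under it no fold is given. *Vegfb* was nearly level across all 18 arrays, from 95.2 to 132.7, and no cell type comparison called it.

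The receptors *Flt1*, *Kdr* and *Flt4* had their highest signals in endothelium. *Kdr* read 2308.5, 2431.7 and 2300.8 in wild type endothelial arrays, 543.7, 664.0 and 534.7 in podocyte arrays, and 77.6, 81.1 and 934.8 in mesangial arrays. Endothelial arrays lay above all others, and mesangial array C lay above every podocyte array while arrays A and B were under 100. With these set to 100, mean log2 signal in endothelial cells exceeded that of mesangial cells by 3.48 (adjusted p = 0.00544), and by 2.94 to 4.55 with 1 array left out, the highest without mesangial array C. The difference between podocytes and endothelial cells was -2.02 (adjusted p = 0.0663) and that between podocytes and mesangial cells, 2 of whose arrays were under 100, was not called (adjusted p = 0.137). Without mesangial array C both passed (adjusted p = 7.4e-07 and 3.3e-07). The podocyte arrays kept in that fit also carried endothelial marker signal, with sums of 4156 to 5507, against 3382 and 3780 in mesangial arrays A and B. Its part in the podocyte *Kdr* signal was not tested.

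*Flt1* followed the same order. It read 1621.3, 1814.1 and 1534.6 in wild type endothelial arrays, 312.7, 409.8 and 271.0 in podocyte arrays and 124.8, 86.6 and 538.9 in mesangial arrays, with array C again the highest of its group. With mesangial array B set to 100, mean log2 signal in endothelial cells exceeded that of mesangial cells by 3.13 (adjusted p = 0.00164), and by 2.67 to 3.89 with 1 array left out, the highest again without mesangial array C. Endothelial cells were 5.07-fold above podocytes (podocyte minus endothelial -2.34 ± 0.54, adjusted p = 0.00714). With mesangial array B set to 100, podocytes exceeded mesangial cells by 0.79 (adjusted p = 0.266), and by 1.55 without mesangial array C (adjusted p = 0.000269). The part of the endothelial marker signal of the podocyte arrays in their *Flt1* signal was likewise not tested. *Flt4*, the receptor of VEGF-C and VEGF-D, read 160.3, 129.3 and 141.4 in wild type endothelial arrays and at most 66.5 in any mesangial or podocyte array of either genotype. It was at least 1.43-fold higher in endothelial cells than in mesangial cells (adjusted p = 5.83e-05) and podocytes (adjusted p = 0.000125), which both lay under 100.

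The neuropilins were shared by endothelial and mesangial cells. *Nrp1*, a co-receptor of VEGF-A and of class 3 semaphorins, read 2178.7, 2470.2 and 2237.5 in wild type endothelial arrays, 2236.0, 2335.5 and 2335.7 in mesangial arrays and 1371.8, 1499.7 and 1257.8 in podocyte arrays. The mesangial and endothelial arrays overlapped (mesangial minus endothelial 0.01, 95% interval -0.20 to 0.22), and podocytes were below both, at -0.75 ± 0.09 against mesangial cells (adjusted p = 0.000314) and -0.74 ± 0.09 against endothelial cells (adjusted p = 0.000228). *Nrp2*, which also serves VEGF-C, read 252.5, 294.7 and 258.9 in endothelial arrays, 269.5, 281.6 and 240.8 in mesangial arrays and 137.8, 105.7 and 103.9 in podocyte arrays. Its podocyte level was lower, at -1.20 against mesangial (adjusted p = 0.000113) and -1.22 against endothelial cells (adjusted p = 7.28e-05).

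**Figure D2:**
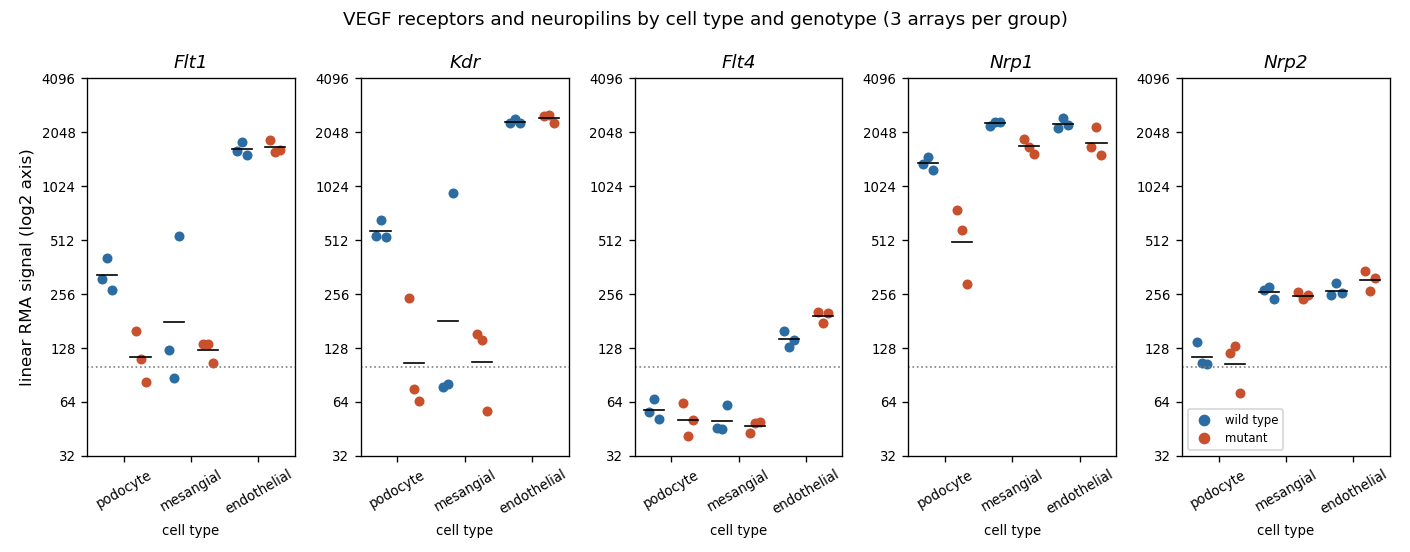
Linear RMA signal (log2 axis) of the 3 receptors and 2 neuropilins in each of the 18 arrays, by cell type, with wild type arrays in blue and mutant arrays in orange. Bars are means of log2 signal and the dotted line is the minimum of 100. Wild type mesangial array C stands above arrays A and B for *Flt1* (538.9) and *Kdr* (934.8), and mutant podocyte arrays lie below wild type podocyte arrays for *Flt1*, *Kdr* and *Nrp1*.

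Counted together, 6 of 10 members passed the test between wild type podocytes and mesangial cells (1 higher, 5 lower in podocytes), where 27.9% of all 12537 transcript clusters tested did. Between podocytes and endothelial cells 6 of 10 passed (2 higher, 4 lower), against 38.8% of all, and between mesangial and endothelial cells 7 of 10 (3 higher, 4 lower), against 32% of all. The median log2 difference of the members was -0.31, -0.31 and -0.02, beside -0.03, -0.02 and -0.01 over all transcript clusters. The arrays of mutant mice, which are other samples, gave counts of 5 of 9 tested between podocytes and mesangial cells (29% of all clusters passed), 7 of 9 between podocytes and endothelial cells (47.1%) and 6 of 9 between mesangial and endothelial cells (22.8%). Some of the wild type calls concern *Pgf*, which is near or under the minimum. In both genotypes some calls of *Vegfc*, *Flt4* and *Figf* compare a group with signal to a group wholly under 100. *Vegfc* reached 100 only in mesangial arrays and *Flt4* only in endothelial arrays, so each entered the test through the cell type where it is high. Nothing more is read from these counts. Where all 3 arrays of a group had to reach 100, the wild type counts were 5, 6 and 6.

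The cell type with the highest signal was the same in the mutant arrays for *Vegfa*, *Figf*, *Kdr* and *Flt1*. With signals under 100 set to 100, mean log2 *Vegfa* signal was higher by 3.39 in mutant podocytes than in mutant mesangial cells (adjusted p = 2.93e-07), and *Vegfa* was 3.41-fold higher than in mutant endothelial cells (adjusted p = 1.03e-05). *Figf* was at least 21.3-fold higher in mutant mesangial than in mutant endothelial cells (adjusted p = 1.55e-06) and 7.40-fold higher than in mutant podocytes (adjusted p = 0.000149). On the same scale *Kdr* in mutant endothelium exceeded mutant mesangial cells by 4.25 and mutant podocytes by 4.19 (adjusted p = 9.72e-05 and 8.05e-05). *Flt1* was 13.6-fold higher than in mutant mesangial cells (adjusted p = 1.56e-06) and exceeded mutant podocytes, with array C set to 100, by 3.81 on the log2 scale (adjusted p = 9.46e-07). Between mutant podocytes and mutant mesangial cells the arrays overlapped and neither receptor was called (*Kdr* adjusted p = 0.987, *Flt1* adjusted p = 0.681).

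The second question was what the *Cd2ap* mutation changes within each cell type. In mesangial cells *Figf* rose. *Pgf*, at signals around and under the minimum, also passed the adjusted test there, and no other member passed in any of the 3 cell types. *Figf* read 2049.5, 2116.4 and 2223.1 in mutant arrays against 1057.7, 1323.8 and 992.8 in wild type arrays. The groups did not overlap, and mutant arrays were the higher by a factor of 1.91 (log2 fold change 0.93 ± 0.12, SE, limma adjusted p = 0.0191). *Pgf* read 61.7, 56.5 and 56.4 in mutant and 106.7, 80.4 and 110.9 in wild type arrays, without overlap (adjusted p = 0.0419). All mutant *Pgf* values were under 100, and only wild type arrays A and C reached it. With signals under 100 set to 100, mean log2 signal was higher by only 0.08 in wild type arrays (0.05 to 0.12 with 1 array left out), so no fold is given. The gene was not tested where all 3 arrays of a group had to reach 100.

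Both calls sat close to the threshold. *Figf* kept a log2 fold change of 0.85 to 1.05 when each array was left out in turn, and passed without wild type array B or C (adjusted p = 0.0215 and 0.0272) but not without any mutant array or wild type array A (0.0649 to 0.0857). *Pgf* passed only without wild type array B (adjusted p = 0.0312), the highest of the others being 0.145. Settings that kept all arrays also ended the calls. *Figf* missed with all 18 arrays in 1 fit (limma adjusted p = 0.0704). *Pgf* missed with no minimum (limma adjusted p = 0.0682) and with the trend and robust options of eBayes (0.0584). *Figf* lies on the X chromosome, and sex-linked signal was not balanced between the groups, whose sex the labels do not give: *Xist* read 560 to 755 in the 3 mutant mesangial arrays and 730 in wild type array A, but 32.4 and 35.0 in wild type arrays C and B, which had *Ddx3y*, a Y-linked gene, at 459 and 470. Wild type array A, with the *Xist* signal of the mutant arrays, had 1057.7 for *Figf*, and the part of sex in the *Figf* difference was not tested.

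*Nrp1* in mesangial cells read 1885.6, 1701.6 and 1558.2 in mutant and 2236.0, 2335.5 and 2335.7 in wild type arrays. The groups did not overlap, but the difference of -0.43 ± 0.10 missed the adjusted threshold (adjusted p = 0.0689), while it passed under 3 of the alternative settings (adjusted p = 0.0131 to 0.0444). The remaining mesangial members were not called. *Vegfa* (-0.60), *Flt1* (-0.53) and *Kdr* (-0.75) had intervals that ran from -1.65 to 0.46, from -2.03 to 0.96 and from -3.07 to 1.57, and all of these negative values rested on wild type array C. Without it they were -0.03, 0.26 and 0.43, with both remaining wild type arrays of *Vegfa* and *Kdr* under 100. *Vegfb* (0.16), *Vegfc* (0.09) and *Nrp2* (-0.07) differed little, and *Flt4* did not reach the minimum.

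In all, 2 of 9 members tested passed in mesangial cells, 1 in each direction, where 2.92% of 11457 transcript clusters passed. The lower member, *Pgf*, entered the test only through 2 wild type arrays just above 100, so only *Figf* is a call on signals above the minimum. The study's looser screen, an unadjusted p under 0.05 with a fold change over 1.5, took the same 2 members and 5.19% of all clusters. The median log2 fold change of the members was -0.43, against -0.02 over all clusters, and -0.03 without wild type array C, where that of all clusters was -0.02. Cell markers moved in the same arrays: the mesangial integrin *Itga8* (-0.59, adjusted p = 0.0235) and the PDGF receptor *Pdgfrb* (-0.58, adjusted p = 0.042) fell, as did 2 of 10 endothelial markers, *Tek* (-1.19, adjusted p = 0.0497) and *Ehd3* (-0.98, adjusted p = 0.0121), and summed mesangial marker signal was 6054 to 6903 in mutant and 8580 to 9470 in wild type arrays. Of 5 smooth muscle and juxtaglomerular markers 0 were called by limma (2 at an unadjusted p under 0.05, where 21.7% of all clusters were), and their summed signal was 1592, 2603 and 2892 in mutant and 1326 to 1609 in wild type arrays. The part of these markers' cells in the VEGF gene changes was not tested.

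**Figure D3:**
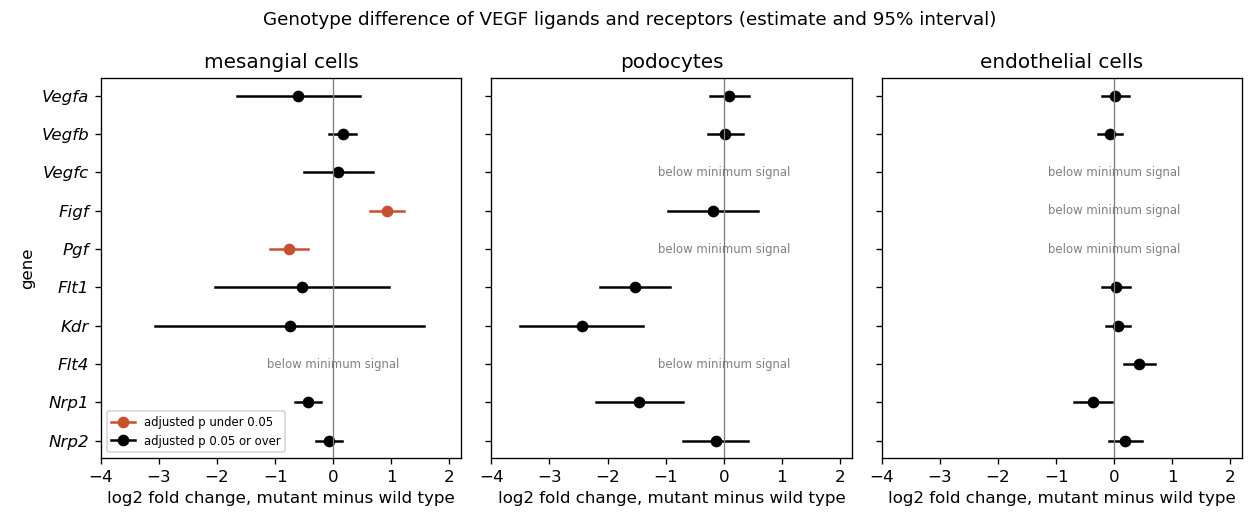
Log2 fold change, mutant minus wild type, of each of the 10 genes in mesangial cells, podocytes and endothelial cells, with the 95% interval of the limma fit (3 against 3 arrays). Orange marks an adjusted p under 0.05, which only *Figf* (0.93) and *Pgf*, whose mutant arrays were under the minimum, had, both in mesangial cells. Values are of the signals as deposited, those under 100 included, and genes under the minimum in a whole cell type are marked as such.

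In podocytes the *Vegfa* signals of the genotypes overlapped, while *Kdr*, *Flt1* and *Nrp1* had large negative differences that did not pass the adjusted test. *Vegfa* read 946.3, 975.9 and 1252.1 in mutant and 957.0, 973.7 and 1012.1 in wild type podocyte arrays. The log2 fold change was 0.10 with a 95% interval from -0.24 to 0.43 (adjusted p = 0.788). *Kdr* read 243.7, 75.4 and 65.2 in mutant, where B and C were under 100, against 543.7, 664.0 and 534.7 in wild type arrays. With B and C set to 100, mean log2 signal was higher by 2.10 in wild type arrays (adjusted p = 0.135). *Flt1* read 160.0, 110.9 and 82.9 against 312.7, 409.8 and 271.0, and with mutant array C set to 100 mean log2 signal was higher by 1.43 in wild type arrays (adjusted p = 0.134). *Nrp1* read 750.7, 580.6 and 289.8 against 1371.8, 1499.7 and 1257.8 (log2 fold change -1.45 ± 0.32, adjusted p = 0.155).

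For all 3 of these genes every mutant podocyte array lay below every wild type podocyte array, and among the mutant arrays A was highest and C lowest. None of the 7 members tested in podocytes was called, where 0.0578% of 12113 transcript clusters were (7 clusters). The study's looser screen took these 3 members, all lower, and 5.61% of all clusters. With an unadjusted p under 0.05 the count was also 3 of 7, beside 14.3% of all clusters. Without mutant array A all 3 passed (*Kdr* adjusted p = 0.00464, *Flt1* adjusted p = 0.0228, *Nrp1* -1.74, adjusted p = 0.0368), and in a fit over all 18 arrays *Nrp1* passed (adjusted p = 0.00359). The median log2 fold change of the members was -0.19, and -0.04 over all clusters.

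The endothelial markers were lower in the same mutant podocyte arrays, without passing the test. In podocytes the median log2 fold change of the 10 endothelial markers was -1.47, with 0 of 10 called by limma (8 of 10 at an unadjusted p under 0.05, beside 14.3% of all clusters), among them the endothelial cadherin *Cdh5* (-1.77), the adhesion molecule *Pecam1* (-1.60), *Emcn* (-2.53) and the angiopoietin receptor *Tek* (-2.09). The 6 mesangial markers had a median of -0.68 (0 of 6 called, 3 at an unadjusted p under 0.05), including *Itga8* at -1.55, and the 9 podocyte markers one of -0.13 (0 of 9 called, 1 at an unadjusted p under 0.05). The 6 podocyte arrays fall in the same order by summed endothelial marker signal and by the signal of *Kdr*, *Flt1* and *Nrp1*, from mutant array C to wild type array B. The number of endothelial markers with a signal of at least 100 was 9 or 10 of 10 in wild type and 5 to 8 of 10 in mutant podocyte arrays. The part of endothelial and mesangial cells or RNA in the podocyte values of *Kdr*, *Flt1* and *Nrp1* was not tested. Summed signals of smooth muscle and juxtaglomerular markers (5 genes) went the other way, at 2970, 2374 and 1022 in mutant and 766 to 783 in wild type podocyte arrays. Erythroid marker sums (3 genes) were 5377, 692 and 202 in mutant arrays A, B and C and 2962 to 3963 in wild type podocyte arrays. Of 2 erythroid markers tested, 0 were called by limma (median log2 fold change -2.07), and their part was not tested.

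**Figure D4:**
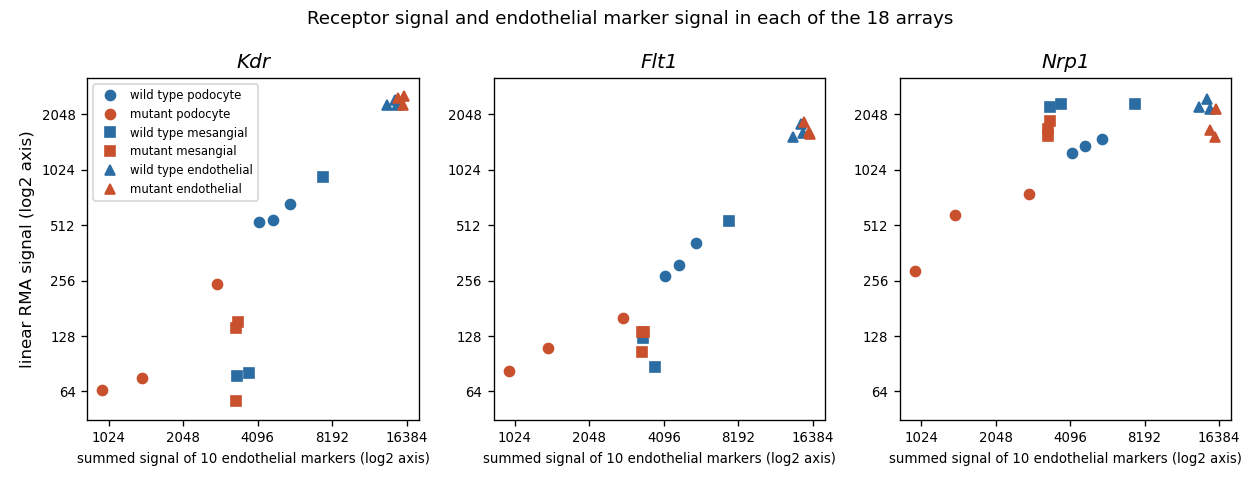
Linear RMA signal of *Kdr*, *Flt1* and *Nrp1* against the summed signal of 10 endothelial markers in each of the 18 arrays, both on log2 axes, with cell types by symbol and genotypes by colour. Podocyte arrays run from 964 (mutant array C) to 5507 (wild type array B) on the marker axis and rise with it for all 3 genes. Mesangial arrays, with *Nrp1* at 1558 to 2336, have marker sums of 3335 to 3780, except 7517 in wild type array C.

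*Figf* in podocytes read 413.8, 343.9 and 167.0 in mutant and 408.6, 321.3 and 266.9 in wild type arrays (log2 fold change -0.19, 95% interval -0.97 to 0.59, adjusted p = 0.831). Mutant array C, the lowest, is the array with the lowest mesangial marker signal (827). *Nrp2* (-0.14) and *Vegfb* (0.03) overlapped between genotypes, and *Vegfc*, *Pgf* and *Flt4* stayed under 100 in all 6 podocyte arrays.

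In endothelial cells the differences in the main VEGF-A receptors were within the spread between arrays. *Kdr* read 2515.4, 2568.7 and 2307.6 in mutant and 2308.5, 2431.7 and 2300.8 in wild type arrays (log2 fold change 0.07, 95% interval -0.13 to 0.27). *Flt1* read 1853.9, 1600.6 and 1642.5 against 1621.3, 1814.1 and 1534.6 (0.04, interval -0.21 to 0.28). *Vegfa* had a log2 fold change of 0.02 (interval -0.21 to 0.25), *Vegfb* of -0.07 and *Nrp2* of 0.19. The groups of each of these 5 genes overlapped, and none had an unadjusted p under 0.05.

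Endothelial *Flt4* and *Nrp1* differed more. *Flt4* read 203.4, 175.9 and 202.0 in mutant and 160.3, 129.3 and 141.4 in wild type arrays, without overlap (log2 fold change 0.43 ± 0.11, adjusted p = 0.121). *Nrp1* read 1686.9, 2190.3 and 1537.7 against 2178.7, 2470.2 and 2237.5 (-0.36 ± 0.14, adjusted p = 0.234), and mutant array B overlapped the wild type range. Neither passed, so 0 of 7 members tested were called in endothelium by limma, where 1.29% of 11330 clusters were, and 2 of 7 had an unadjusted p under 0.05, beside 18.5% of all clusters. The looser screen took 0 of 7, and 3.82% of all clusters. *Vegfc*, *Figf* and *Pgf* were under the minimum there. Sex-linked signal was unbalanced here too: *Xist* read 32.5 and 31.7 in mutant endothelial arrays A and B, which had *Ddx3y* at 695 and 772, but 732 in mutant array C and 685 to 1007 in wild type arrays. Of 10 endothelial markers 0 were called by limma there (5 at an unadjusted p under 0.05, median log2 fold change 0.26), and their summed signal was 15084 to 15993 in mutant and 13592 to 15022 in wild type arrays. Summed leukocyte marker signal was 615, 445 and 314 in mutant and 315 to 365 in wild type endothelial arrays. The part of sex, or of these markers' cells, in the endothelial values was not tested.

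*Nrp1* had a negative estimate in each cell type, at -0.43, -1.45 and -0.36 in mesangial cells, podocytes and endothelial cells, from separate arrays, and passed the adjusted test in none of them.

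Whether the genotype effect differs between cell types was tested as an interaction over all 18 arrays. No member passed in limma's adjusted test: 0 of 10 for podocytes minus mesangial cells, where 0.717% of 13523 clusters passed, 0 of 10 for endothelial minus mesangial cells (1.07%) and 0 of 10 for endothelial cells minus podocytes (2.11%). At an unadjusted p under 0.05 the counts were 3, 3 and 4 of 10, where those of all clusters were 12%, 15.9% and 23.4%. All 3 members in the second count (*Figf*, *Pgf* and *Flt4*), *Pgf* in the first and *Flt4* in the last were under 100 in at least 1 cell type compared, so nothing is read from these counts. The *Figf* increase in mesangial cells exceeded its effect in podocytes by 1.12 (podocyte minus mesangial -1.12 ± 0.39, adjusted p = 0.24), so it is not shown to be particular to mesangial cells. *Figf* lay under the minimum in endothelial cells, *Pgf* in podocytes and endothelial cells, and *Flt4* in mesangial cells and podocytes, so differences in effect that involve those groups are not given.

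The *Nrp1* effect in endothelial cells exceeded that in podocytes by 1.09 (adjusted p = 0.0827). The same difference was not called for *Kdr* (adjusted p = 0.155) or *Flt1* (adjusted p = 0.16), and no size is given, since *Kdr* had 2 mutant podocyte arrays under 100 and *Flt1* had 1. In the same interaction 3 of 10 endothelial markers were higher, *Tek* (2.18, adjusted p = 0.0237), *Plvap* (1.23, adjusted p = 0.0457) and *Esam* (1.03, adjusted p = 0.0368), and the median of the 10 was 1.52 beside 0.11 over all clusters. Their part in the receptor values was not tested. Against mesangial cells the podocyte effect was lower by 1.02 for *Nrp1* (log2 difference -1.02, adjusted p = 0.204). The calls moved with single arrays. Without wild type mesangial array C the endothelial minus podocyte difference passed for *Kdr* (adjusted p = 0.0355) and *Flt1* (adjusted p = 0.0221), and the podocyte minus mesangial difference also passed for both (adjusted p = 0.0285 and 0.0144), where with all arrays neither did (adjusted p = 0.539 and 0.578). Without mutant podocyte array A the endothelial minus podocyte difference passed for *Nrp1* (1.38, adjusted p = 0.0098), and *Nrp1* passed for podocytes minus mesangial cells (-1.31, adjusted p = 0.0262).

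The pathway around these genes was read from 7 lists of 90 genes. In mesangial cells 5 of 64 tested passed between genotypes, beside 2.92% of all clusters. Among 9 receptor partners tested, 1 fell and 0 rose: *Efnb2*, the ephrin-B2 ligand that controls VEGF receptor uptake, at -1.06 (mean signal 899 in mutant, 1881 in wild type, adjusted p = 0.00492). Among 8 tested genes that VEGF induces in endothelium, 1 rose, the immediate early gene *Egr1* (0.80, adjusted p = 0.0396). Among 6 oxygen sensing genes 1 fell, *Epas1*, which encodes HIF-2 alpha (-0.46, adjusted p = 0.046), and among 9 hypoxia targets 1 fell, the glucose transporter *Slc2a1* (-0.55, adjusted p = 0.0472). Among 7 class 3 semaphorins and plexins 1 fell, *Plxnd1*, a semaphorin receptor (-0.56, adjusted p = 0.0335), and 0 of 21 signal relay genes and 0 of 4 VEGF-C and VEGF-D processing genes passed. The list medians lay between -0.35 (receptor partners) and 0.03 (VEGF-induced genes), beside -0.02 over all clusters.

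No gene of the 7 lists passed limma's adjusted test between genotypes in podocytes (67 tested, 21 with an unadjusted p under 0.05, beside 14.3% of all clusters) or endothelial cells (66 tested, 15 with an unadjusted p under 0.05, beside 18.5%). In podocytes the receptor partners had a median log2 fold change of -0.53 (9 tested, all clusters -0.04), and the hypoxia targets other than *Vegfa* one of 0.07 (8 tested). In endothelial cells the VEGF-induced genes had a median of 0.16 (10 tested, all clusters 0.07). The interaction of endothelial cells minus podocytes called 2 of 72 list genes tested, beside 2.11% of all clusters, *Clec14a*, a C-type lectin of endothelium (2.41, adjusted p = 0.0237), and *Epas1* (1.55, adjusted p = 0.0259), beside the 3 of 10 endothelial markers higher in the same interaction.

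Between wild type cell types the lists placed further VEGF partners. Podocytes carried the semaphorins *Sema3e* (mean signal 861, against 83.7 in mesangial and 38.7 in endothelial cells) and *Sema3g* (673, against 90.0 and 124), both called against each other type, while *Plxna4*, a plexin through which semaphorins act, was higher in endothelium (339, against 78.5 in mesangial cells and 76.3 in podocytes). Of 8 semaphorins and plexins tested, 3 were higher and 3 lower in podocytes than in mesangial cells (27.9% of all clusters passed), and 4 higher and 4 lower than in endothelium (38.8%). The integrin subunit *Itgav* was highest in podocytes (1190, against 591 and 156), and the phosphatase *Ptprb*, which acts on the endothelial junction, was highest in endothelium (2292, against 523 in podocytes and 548 in mesangial cells). Of 9 receptor partners tested, 2 were higher and 3 lower in podocytes than in mesangial cells (27.9% of all clusters passed). Against endothelium 2 were higher and 4 lower in podocytes (38.8%), and 2 higher and 4 lower in mesangial cells (32%). *Angpt2*, an angiopoietin, was higher in mesangial than in endothelial cells (1171 against 82.8, adjusted p = 2.31e-07), whereas *Dll4*, a Notch ligand, was higher in endothelium (199 against 85.2, adjusted p = 8.12e-05). Of 9 VEGF-induced genes tested between mesangial and endothelial cells, 2 were higher in mesangial cells and 6 in endothelial cells, where 32% of all clusters passed. Of 9 hypoxia targets, 5 were higher and 1 lower in podocytes than in endothelium (38.8% of all clusters passed), among them *Adm*, the vasodilator adrenomedullin (176 against 47.6, adjusted p = 0.000423). Mesangial cells gave the same counts against endothelium, 5 higher and 1 lower (32% of all clusters passed). Against mesangial cells 2 were higher and 2 lower in podocytes (27.9%), so this is not a trait of podocytes alone.

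The members also varied together to different degrees over the 18 arrays, which share their cell types. Pearson's r of log2 signal was 0.98 between *Flt1* and *Kdr*, 0.94 between *Flt1* and *Flt4*, 0.80 between *Nrp1* and *Nrp2* and 0.79 between *Vegfc* and *Figf*, and it was -0.87 between *Figf* and *Flt4* and -0.79 between *Vegfa* and *Nrp2*. The patterns most like 9 of the members among 11131 transcript clusters of other single genes were *Cd55* (r = 0.98) for *Vegfa*, *Cp* (0.99) for *Figf*, *Eltd1* (0.99) for *Kdr*, *Smpdl3a* (0.99) for *Flt1*, *Fam167b* (0.99) for *Flt4*, *Plscr2* (0.97) for *Nrp1*, *Nrxn3* (0.94) for *Vegfc*, *Fam46a* (0.91) for *Pgf* and *Pqlc1* (0.84) for *Vegfb*. These values describe 18 arrays of 3 cell types and carry no test.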

How the data were processed

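RNA of the sorted cells went through 1 round of linear Ribo-SPIA amplification and was hybridised to Affymetrix Mouse Gene ST arrays. The authors deposited linear intensity values, 1 signal per transcript cluster and array, which the labels ascribe to gene level RMA in Expression Console, with background correction, quantile normalization and probe summary. The 18 columns that the header calls normalized, a second value per array, were not used. The series record names Exon arrays and GeneBASE instead, and the file header and labels were followed. The study's RNA-seq was not analysed here.

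Groups came from the labels and from transgene and genotype signs in the column names. Log2 signals were fitted in R 4.3.3 by limma 3.58.1 (lmFit, eBayes), without covariates: 6 arrays of a cell type for genotype, 9 of a genotype for cell types, all 18 for interactions. Transcript clusters needed a signal of 100 in at least 1 array of the fit, the study's minimum. A gene was called at a Benjamini-Hochberg adjusted p under 0.05 over all clusters tested, and the study's screen (p under 0.05, fold change over 1.5) is given beside it. The script was tested on simulated data. The number of arrays, 3 per group, limits precision, and p-values measure the spread between these arrays.

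The 10 members, the 7 pathway lists and the marker lists were chosen with earlier results of these data known. List genes are named where their adjusted p was under 0.05 (at most 6 per list and comparison, largest change first); marker genes, *Xist* and *Ddx3y* were named after their values were seen. Nearest patterns are the 3 highest r over 18 arrays, of which the highest is printed. Some items under these rules are not reported here.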

Additional observations from a re-analysis of the deposited data

How the results depend on the processing

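Settings tried were a minimum of 100 in all 3 arrays of a group, no minimum, trend and robust options of eBayes, array medians subtracted, another quantile normalization, all 18 arrays in 1 fit, the study's screen, and each array left out in turn. No member has another transcript cluster, so that alternative gave no value. No paired analysis was possible because replicate numbers are not shared between groups. Of single values under settings with all arrays, 472 kept direction and side of the threshold, 6 lost the call, 6 gained it and 4 changed sign; the causes were not tested. Those 4 were *Vegfb* in podocytes (-0.0064) and between wild type mesangial and endothelial cells (0.038) and *Nrp2* in the latter (0.025), all with medians subtracted, and *Vegfa* in endothelial cells (-0.11) after another quantile normalization.

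The count of members called in mesangial cells was 1 with no minimum, where *Pgf* missed (adjusted p = 0.0682), and 1 with all 18 arrays, where *Figf* missed (adjusted p = 0.0704). The podocyte count was 1 with all 18 arrays and 3 under the study's screen. The interaction count of endothelial minus mesangial cells was 1 with medians subtracted (*Pgf*, adjusted p = 0.0372, under 100 in all endothelial arrays). With trend and robust estimation *Pgf* in mesangial cells missed (adjusted p = 0.0584). The wild type mesangial minus endothelial call of *Vegfa* was lost in 3 settings (adjusted p = 0.0528 to 0.092), and podocyte minus endothelial *Kdr* passed with all 18 arrays (adjusted p = 0.0372).

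With each array left out, counts ran from 0 to 2 in mesangial cells, 0 to 3 in podocytes, 0 to 2 for podocyte minus mesangial, 0 to 1 for endothelial minus mesangial and 0 to 2 for endothelial minus podocyte effects. Values that changed sign, all uncalled, ran in mesangial cells from -0.17 to 0.29 (*Vegfc*), -1.06 to 0.26 (*Flt1*) and -1.36 to 0.43 (*Kdr*). In podocytes they ran from -0.029 to 0.17 (*Vegfa*), -0.052 to 0.078 (*Vegfb*), -0.45 to 0.21 (*Figf*) and -0.30 to 0.13 (*Nrp2*). In endothelial cells they ran from -0.037 to 0.10 (*Vegfa*) and -0.028 to 0.10 (*Flt1*). Between wild type mesangial and endothelial cells they ran from -0.030 to 0.060 (*Nrp1*) and -0.073 to 0.043 (*Nrp2*), and for the effect in endothelial minus mesangial cells from -0.22 to 1.10 (*Flt1*) and -0.36 to 1.43 (*Kdr*).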
